A study of Mus musculus with 3 samples.

Results

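The 9 genes described here are Fos, Fosb, Jun, Junb and Jund, which encode subunits of the transcription factor AP-1, together with Egr1, Ier2, Atf3 and Dusp1, which are induced beside them. They were taken by name from the 3 count tables, and all 9 rows were found among the 14148 genes measured. The tables hold single-cell RNA-seq of CD45+ cells, that is, cells carrying the pan-leukocyte surface protein, sorted from the muscularis externa of the small intestine of 12-week-old female wild-type C57BL/6J mice. The muscularis externa is the muscle coat of the gut wall, and it was inflamed here by intestinal manipulation, a surgical handling of the bowel. One library came from naïve mice, 1 from mice at 24 h and 1 from mice at 72 h after manipulation, and each library was pooled from 3 to 4 animals. There are therefore no replicates, no test between time points was possible, and a difference between time points cannot be told apart from a difference between libraries.

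Immediate early genes are transcribed within minutes of a stimulus, without the need for new protein, because the factors that switch them on are already present and only need to be phosphorylated by MAP kinases. Fos and Jun proteins then pair to form AP-1, which binds regulatory DNA of inflammatory and growth genes, and the transcripts decay quickly once the signal ends. In myeloid cells this programme follows microbial products, cytokines and adhesion, and in many tissues enzymatic digestion into single cells is also known to induce it. Digestion conditions are not given in the sources used here and no sample processed in another way is at hand, so the part of cell preparation in the levels below was not tested. The cells of 1 library shared 1 preparation.

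The naïve library held 652 cells and 1865221 unique molecular identifiers (UMIs, 1 tag per captured mRNA molecule), the 24 h library 2211 cells and 10542346 UMIs, and the 72 h library 1239 cells and 5246731 UMIs. Each pair of libraries shared 1 cell barcode. Cells were clustered without the 9 genes, and clusters were named from marker genes as monocyte/Mφ-like (Mφ, macrophage), DC-like (dendritic cell), neutrophil-like, B cell-like and T cell-like. Clusters 7 and 15 were left unnamed. Levels are UMIs of a gene per 1000000 UMIs of the group (CPM), with an exact 95% Poisson interval that covers counting error only. Each molecule is tagged once at its 3′ end, so levels of different genes are compared as molecules and were not divided by transcript length. Markers listed for cells outside the CD45+ gate (muscle, fibroblasts, endothelium, epithelium and glia) summed to between 34.8 and 82.0 CPM over all cells of a library. Pecam1 gave the most UMIs of these markers in each library (82 in naïve mice, 182 at 24 h and 148 at 72 h). How much of the sum came from cells outside the gate was not tested.

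Fos, Junb, Jun, Jund and Dusp1 were abundant mRNAs in naïve muscularis monocyte/Mφ-like cells. In the 138 naïve cells of this class the 9 genes summed to 6316 CPM (95% interval 6096–6542), or 0.632% of all UMIs, and Fos ranked 105 among the 14148 genes. Junb ranked 136, Jun 147, Jund 165 and Dusp1 177, whereas Egr1 ranked 460, Atf3 692 and Fosb 1007. At 24 h Fos ranked 150, but Jund ranked 506, Jun 554 and Fosb 1840. The summed level was 3497 CPM (3458–3536) in the 1546 cells at 24 h and 4538 CPM (4463–4614) in the 576 cells at 72 h. The naïve library therefore had the highest and the 24 h library the lowest share of these transcripts in monocyte/Mφ-like cells, with intervals that do not overlap. Cells at 24 h were deeper, and the mean number of UMIs of the 9 genes per cell was 22.5 in naïve mice, 20.4 at 24 h and 24.4 at 72 h.

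**Figure D1:**
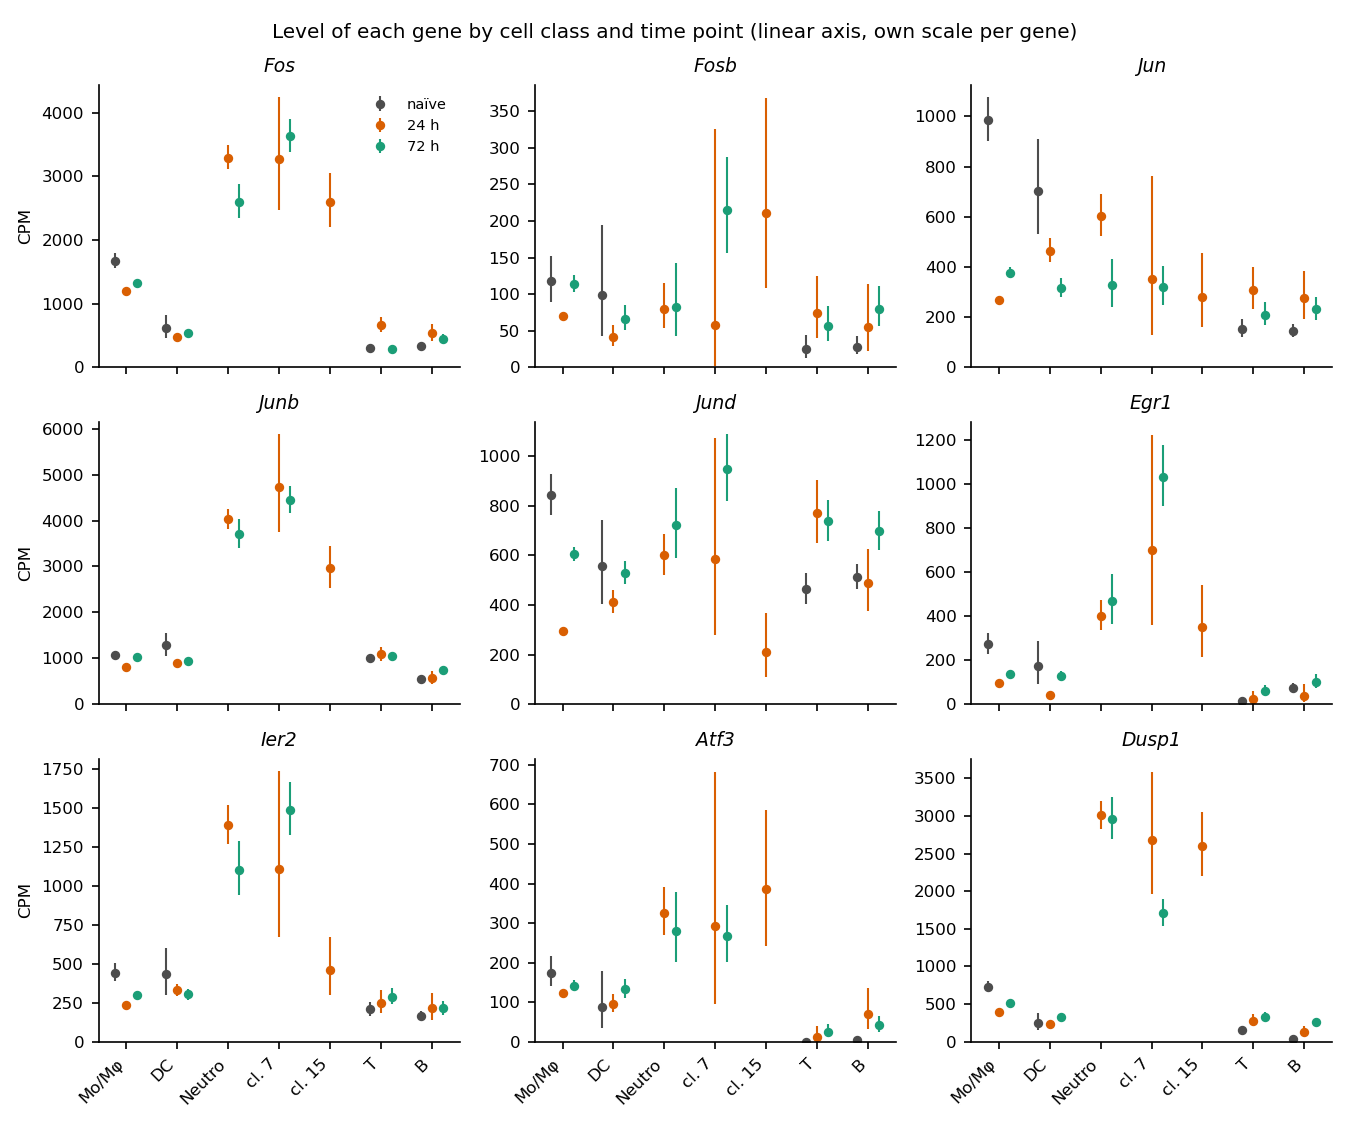
Level of each of the 9 genes in CPM (vertical axis, linear, own scale per gene) by cell class (horizontal axis) and time point (colours), with exact 95% Poisson intervals as bars. Junb, Ier2 and Egr1 stood highest in neutrophil-like cells and in the unnamed cluster 7, and Jun stood highest in naïve monocyte/Mφ-like cells at 987 CPM.

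Among the Jun family, the DNA-binding partners of AP-1, Jun itself differed most between libraries of monocyte/Mφ-like cells. Jun was at 987 CPM in naïve mice, 268 at 24 h and 377 at 72 h. The 24 h level was 3.68-fold below the naïve level (ratio 0.271, 0.246–0.300), or −2.21 on the log2 scale relative to the median of all genes, which itself lay 0.33 higher at 24 h. Jund, the family member that is usually transcribed without stimulation, was at 843, 295 and 606 CPM. It was thus 2.85-fold lower at 24 h than in naïve mice (ratio 0.350, 0.316–0.390), and 2.05-fold higher at 72 h than at 24 h (1.93–2.18). Junb, which can restrain Jun when paired with it, stood at 1071, 824 and 1036 CPM and had the ratio of 24 h over naïve nearest to 1 of all 9 genes (0.769, 0.704–0.842).

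The Fos family binds DNA only when paired with a Jun protein. Fos was at 1676 CPM in naïve mice, 1192 at 24 h and 1319 at 72 h, and its 24 h level was 0.711 times the naïve one (0.663–0.764). Fosb was the scarcest of the 9 at 118, 69.6 and 114 CPM. The ratio of Fosb at 72 h over 24 h was 1.64 (1.43–1.87), against 1.11 (1.07–1.15) for Fos. In these cells Fos was the highest of the 9 genes at every time point, and Junb was second.

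Of the other members, Egr1, a zinc-finger factor induced by serum and growth factors, was at 274, 95.2 and 140.4 CPM, a ratio of 0.347 (0.289–0.419) at 24 h over naïve. Dusp1, the phosphatase that switches off p38 and JNK, was at 729, 398 and 509 CPM (0.546, 0.490–0.611). Ier2, a small nuclear regulator, stood at 443, 232 and 297 CPM (0.525, 0.456–0.606). Atf3, a stress-induced factor of the ATF/CREB family, was at 175, 122 and 141 CPM (0.699, 0.561–0.881). All 9 ratios of 24 h over naïve lay below 1 with intervals that exclude 1, and 3 of 9 (Jun, Jund and Egr1) were at least 2-fold lower. The share of all genes with an interval below 1 was not counted, so nothing is read from the 9 intervals as a set. Among the 1522 genes at 100 CPM or more in either library, 8.15% were at least 2-fold lower and 13.7% at least 2-fold higher. The median log2 ratio was −0.87 over the 9 genes and 0.33 over all genes.

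From 24 h to 72 h all 9 ratios in monocyte/Mφ-like cells lay above 1, and the sum was 1.30-fold higher (1.27–1.32). The kinds of cells differed here too, mostly Ly6c+, Arg1+ and Fabp5+ at 24 h and mostly Cd206+ and Timp2+ at 72 h (subsets named from a second clustering). Within cluster 0, with 563 and 58 cells, the ratio was 1.40 (1.30–1.51), and within cluster 3, with 235 and 91 cells, it was 1.09 (1.04–1.14). Within the Ccr2+ int subset, with 200 and 69 cells, it was 1.10 (1.05–1.16), with Jund at 358 and 414 CPM (1.16, 0.979–1.36). The Arg1+ subset had 3272 CPM in 322 cells at 24 h and 3743 CPM in 33 cells at 72 h, with Jund at 363 and 613 CPM. Over the whole class Jund alone was at least 2-fold higher, 1 of 9, against 4.46% of the 1459 genes compared, whose median log2 ratio was −0.23. Between naïve and 72 h, Jun alone was at least 2-fold lower at 72 h (0.381, 0.343–0.425), 1 of 9, where 3.71% of 1349 genes were at least 2-fold lower and 2.37% at least 2-fold higher. Fosb (0.966, 0.730–1.30) and Junb (0.967, 0.882–1.06) had intervals that include 1. The sum at 72 h was 0.719 times the naïve sum (0.691–0.747).

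**Figure D2:**
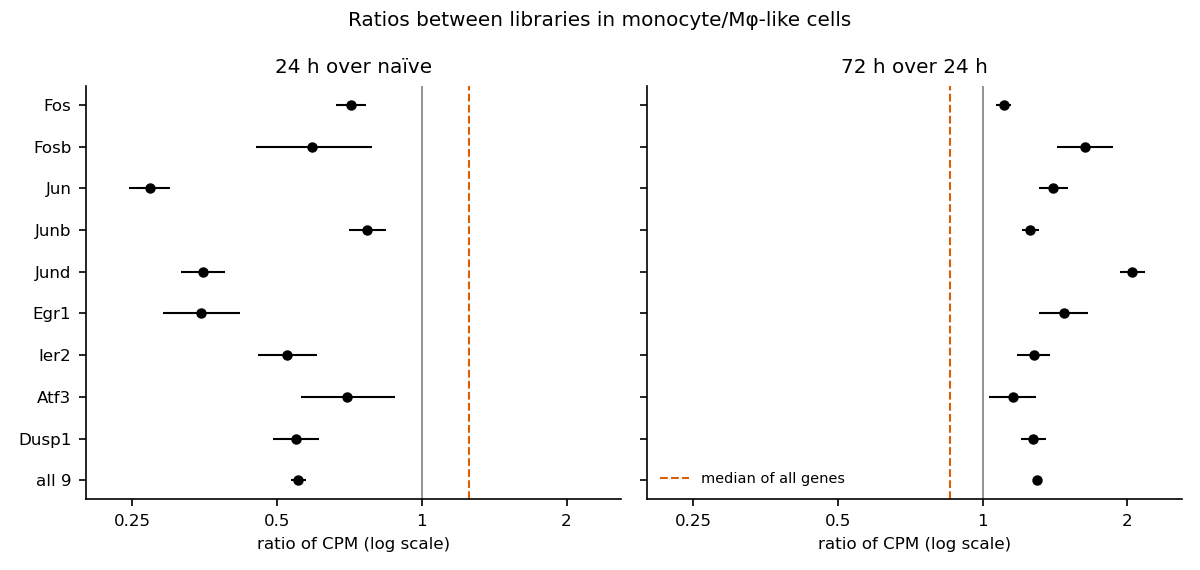
Ratio of CPM between libraries in monocyte/Mφ-like cells (horizontal axis, log scale) for each gene and for all 9 together, with exact 95% intervals and a dashed line at the median of all genes. At 24 h over naïve every gene lies left of 1, from 0.271 for Jun to 0.769 for Junb, and at 72 h over 24 h every gene lies right of 1, up to 2.05 for Jund.

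Within naïve monocyte/Mφ-like cells the level was highest in 1 Mφ subset. Monocyte/Mφ-like cells were clustered again and named by the genes the study used for its subsets. The Cx3cr1+ subset (leading genes Lilra5, Cd81, Tmem119 and Cx3cr1, after the immunoglobulin genes Igkc and Jchain) held 72 of the naïve cells, 1 cell at 24 h and 21 at 72 h. In naïve mice its 9 genes summed to 8180 CPM (7807–8567), against 4615 CPM (4199–5060) in the 27 naïve cells of the Cd206+ subset, a ratio of 1.77 (1.60–1.97) within 1 library. Jun was at 1466 CPM in naïve Cx3cr1+ cells and 408 in naïve Cd206+ cells (3.59-fold, 2.58–5.12), and Atf3 at 249.7 and 81.7 CPM (3.06-fold, on 8 UMIs in the Cd206+ cells). The ratio was 2.75 for Ier2, 2.45 for Dusp1, 2.11 for Egr1, 1.85 for Jund and 1.49 for Fos. Junb (0.966, 0.772–1.21) and Fosb (1.33, 0.658–2.93) had intervals that include 1.

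The same subset was far lower at 72 h. Cx3cr1+ cells had 8180 CPM in naïve mice and 3859 CPM (3511–4233) at 72 h, 2.12-fold less (1.91–2.36) on 21 cells. Dusp1 was at 999 and 240 CPM (4.16-fold), Jund at 1021 and 394 (2.59-fold), Fos at 2215 and 952 (2.33-fold) and Jun at 1466 and 840 (1.74-fold). Cd206+ Mφs, in contrast, had 4615 CPM in naïve mice and 4847 CPM (4731–4965) in the 257 cells at 72 h. That ratio was 1.05 (0.955–1.16), and the intervals of all 9 genes included 1.

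Leaving the Cx3cr1+ cells out left 66 naïve and 1545 cells at 24 h, and the ratio of the sum at 24 h over naïve moved from 0.554 (0.534–0.575) to 0.727 (0.688–0.769). Jun then stood at 0.445, Jund at 0.422 and Egr1 at 0.437. Fos was at 0.961 (0.863–1.07) and Atf3 at 1.07, and the interval of Fos includes 1. Few naïve cells matched the subsets seen at 24 h, and no cluster of monocyte/Mφ-like cells had 20 cells in both libraries. The kinds of cells and the level within a kind of cell can therefore not be told apart for this comparison.

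Hspa1a, but not the heat shock list as a whole, was highest in naïve Cx3cr1+ cells. Hspa1a, the inducible heat shock protein 70, was at 249.7 CPM (55 UMIs) in naïve Cx3cr1+ cells, at 10.2 CPM (1 UMI) in naïve Cd206+ cells, at 120.1 CPM in Cx3cr1+ cells at 72 h and at 51.4 CPM in Cd206+ cells at 72 h. Hspa1b, also on the list, was at 4.54 CPM (1 UMI) in naïve Cx3cr1+ cells, 10.2 CPM (1 UMI) in naïve Cd206+ cells and 42.9 CPM (5 UMIs) in Cx3cr1+ cells at 72 h. The 11 heat shock genes summed to 2438 CPM in naïve Cx3cr1+ cells, 2797 in naïve Cd206+ cells and 3756 in Cx3cr1+ cells at 72 h. Hspa8 (1103 CPM) and Hsp90ab1 (590 CPM) were large parts of the sum in naïve Cx3cr1+ cells. The list sum was thus not highest where the AP-1 genes and Hspa1a were. The median mitochondrial share of a cell's UMIs in these 3 groups was 2.43%, 3.26% and 2.17%. The part of stress during preparation in the Cx3cr1+ values was not tested.

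**Figure D3:**
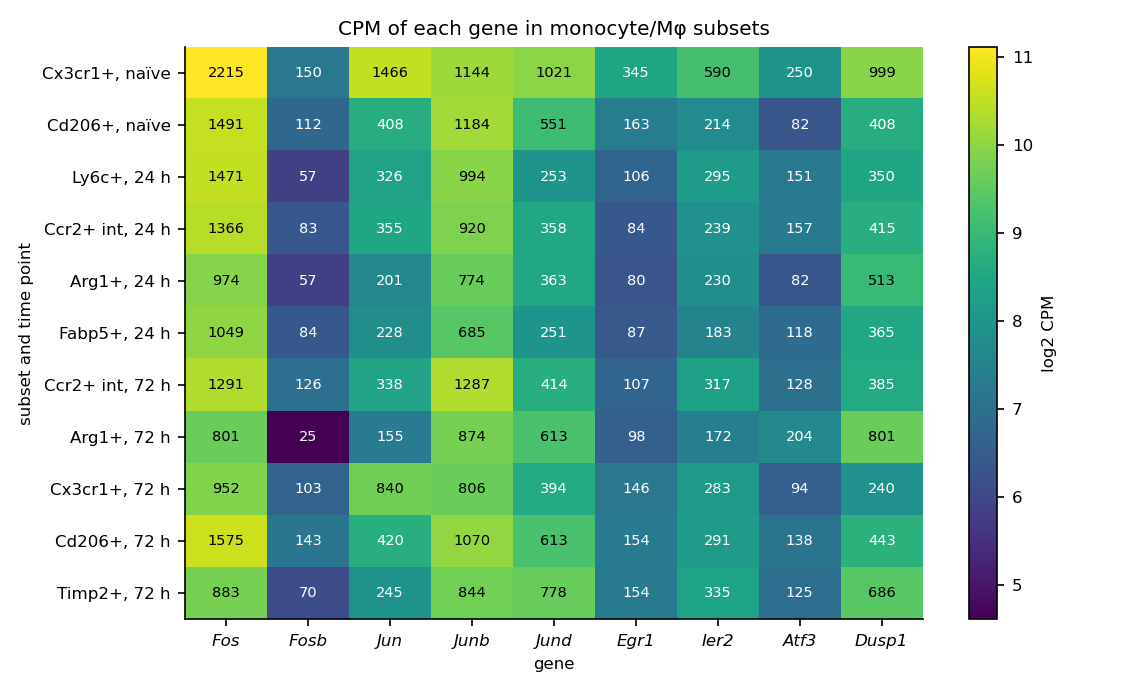
Level of each gene (columns, CPM in each box, coloured by log2 CPM) in the monocyte/Mφ subsets with at least 20 cells, by time point (rows). Naïve Cx3cr1+ cells have the highest Fos (2215 CPM) and Jun (1466 CPM) of these rows, and the Cd206+ rows of naïve and 72 h cells are close to each other.

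Among infiltrating cells at 24 h, the Ly6c+ monocytes had more of these transcripts than the Fabp5+ cells. The sum was 4002 CPM (3916–4090) in 298 Ly6c+ cells and 3051 CPM (2987–3115) in 403 Fabp5+ cells, a ratio of 1.31 (1.27–1.35). Ier2 (1.61), Junb (1.45), Jun (1.43) and Fos (1.40) were higher in Ly6c+ cells, whereas Fosb was lower (0.679), and Jund (1.01) and Dusp1 (0.959) lay near 1. At 72 h the sum was 1.18-fold higher in Cd206+ than in Timp2+ Mφs (1.12–1.23), and single members differed in both directions. Fos was at 1575 CPM in Cd206+ and 883 in Timp2+ Mφs, and Jun, Junb and Fosb were also higher in Cd206+ Mφs by 1.72-, 1.27- and 2.03-fold. Dusp1 was at 443 CPM in Cd206+ and 686 in Timp2+ Mφs, and Jund at 613 and 778, so these 2 members were higher in Timp2+ Mφs.

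Among the named classes the levels were highest in neutrophil-like cells, the granulocytes that enter inflamed tissue first. The 9 genes summed to 13738 CPM (13352–14132) in the 362 neutrophil-like cells at 24 h and 12248 CPM in the 112 at 72 h, and only 12 such cells were in the naïve library. At 24 h the sum was 3.93-fold that of monocyte/Mφ-like cells of the same library (3.81–4.05). Dusp1 was at 3011 against 398 CPM (7.56-fold), Ier2 at 1389.5 against 232 (5.98-fold), Junb at 4031 against 824 (4.89-fold) and Egr1 at 400.3 against 95.2 (4.21-fold). Fos was at 3297 against 1192 CPM (2.77-fold), while Fosb did not separate these classes (80.1 and 69.6 CPM, ratio 1.15, 0.758–1.68). Neutrophil-like cells carry little RNA, with a mean of 966 UMIs per cell against 5826 in monocyte/Mφ-like cells at 24 h. Per cell the mean number of UMIs of the 9 genes was 13.3 in neutrophil-like and 20.4 in monocyte/Mφ-like cells, so the order of the classes is reversed on that scale. None of the 8 members at 100 CPM or more was 2-fold apart between 24 h and 72 h in neutrophil-like cells, where 5.26% of genes were at least 2-fold higher and 7.02% at least 2-fold lower.

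Neutrophil-like cells were not uniform. Cluster 2 (Retnlg, Cxcr2, S100a9) and cluster 14 (Acod1, Il1f9, Hcar2) held 314 and 48 cells at 24 h and differed in the make-up of AP-1 more than in the sum (14781 and 9560 CPM). Fos was at 3995 CPM in cluster 2 and 501 in cluster 14, a ratio of 0.125 (0.087–0.175), and Egr1 was at 493 and 28.6 CPM, the latter on 2 UMIs. Jun went the other way, at 372 CPM in cluster 2 and 1531 in cluster 14 (4.12-fold, 3.12–5.45), as did Atf3 at 236 and 687 CPM (2.91-fold, 1.97–4.29). Junb was at 4519.7 and 2075 CPM, while the ratio of Jund (1.19, 0.841–1.65) had an interval that includes 1. In cluster 14, Jun and Atf3 thus stood above Fos and Egr1, and in cluster 2 the order was the opposite. The clusters were formed without these 9 genes.

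Cluster 7 (Ptgs2, Siglecf, Mmp9) matched 7 of 9 neutrophil markers but was left unnamed. It held 203 cells at 72 h, and its sum of 14063 CPM was close to that of cluster 2 at 72 h (ratio 1.05, 0.988–1.12). Within that sum, Egr1 was 1.85-fold and Fosb 2.21-fold higher than in cluster 2, and Dusp1 was lower (0.552). The highest level of Fos, Egr1, Ier2, Fosb and Jund over the 17 groups of class and library was in cluster 7 at 72 h. These groups pool the clusters of each named class. Taken singly, cluster 2 at 24 h had more Fos, as given above, than cluster 7 at 72 h (3635 CPM). Naïve Cx3cr1+ cells had more Jund (1021 against 948 CPM). The 52 cells of cluster 15, all at 24 h, had 10066 CPM and the highest Atf3 of these groups, 386 CPM.

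**Figure D4:**
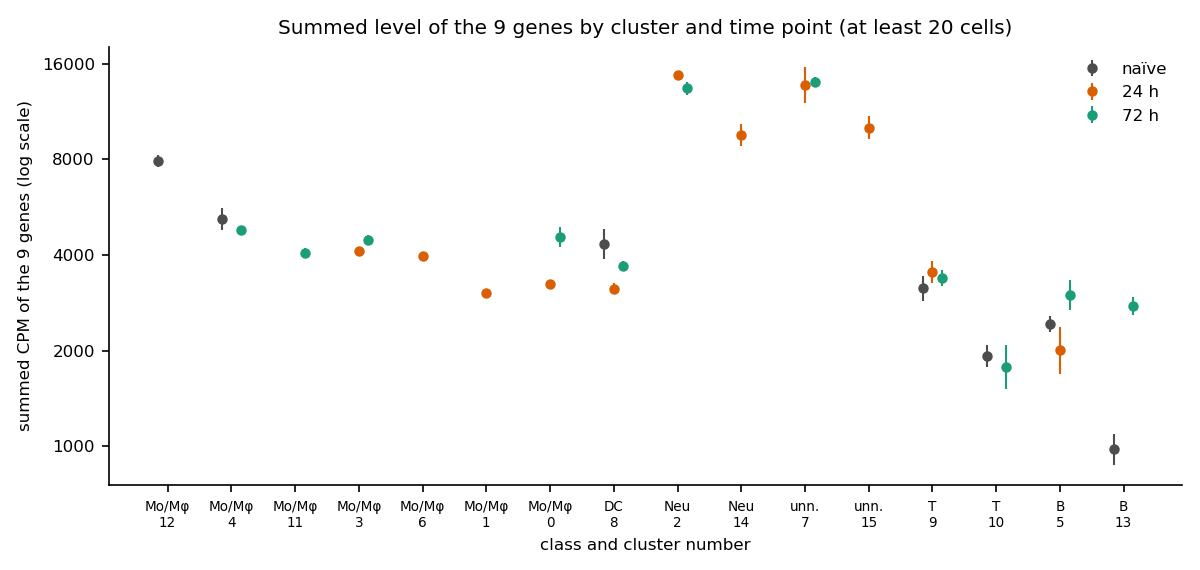
Summed CPM of the 9 genes (vertical axis, log scale) in each cluster with at least 20 cells in a library (horizontal axis, with Neu for neutrophil-like and unn. for unnamed clusters), by time point (colours), with exact 95% intervals. Cluster 12, which holds most Cx3cr1+ cells, is highest among monocyte/Mφ clusters at 7901 CPM in naïve mice, and clusters 2, 7, 14 and 15 lie above it.

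In lymphocytes Junb was the highest of the 9 genes at each time point. T cell-like cells had 2323 CPM of the 9 genes in naïve mice, 3458 at 24 h and 3045 at 72 h. Junb was at 1008, 1087 and 1045 CPM and hardly differed, whereas Fos was at 301, 658 and 292 CPM. Atf3 gave 0 UMIs in 188 naïve T cell-like cells, 2 at 24 h and 10 at 72 h. At 24 h over naïve, 2 of the 6 members at 100 CPM or more, Fos (ratio 2.19) and Jun (154 and 308 CPM), were at least 2-fold higher, where 8.29% of 1677 genes were. At 72 h over 24 h, 1 of 6, Fos (0.445), was at least 2-fold lower, where 3.66% of 1612 genes were. Both T cell-like clusters differed in mixture between libraries, since cluster 10 (Gzma, Gzmb, Cd8a) held 130, 6 and 28 cells and cluster 9 (Thy1, Cxcr6, Trbc2) held 58, 65 and 108. Cluster 10 had 0.614 times the level of cluster 9 in naïve mice (0.544–0.693). Within cluster 9 the sum at 24 h over naïve was 1.13, with an upper limit of 1.27 and a lower limit close to 1, and with Fos at 2.19 (1.54–3.14), Jund at 1.48 and Junb at 0.758. At 72 h over naïve it was 1.08 in cluster 9 and 0.924 in cluster 10, both with intervals that include 1. Cluster 9 was itself a mixture, since at resolution 1.2 a cluster of 12, 29 and 39 cells with NK/ILC markers was formed beside a T cell-like one of 46, 36 and 69.

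B cell-like cells had the lowest level of the named classes at each time point, with 1848 CPM in naïve mice, 2389 at 24 h and 2827 at 72 h. Dusp1 was at 38.0, 134 and 265 CPM, and it was the 1 member at least 2-fold higher at 24 h, where 10.1% of 1466 genes were and 4.5% were at least 2-fold lower. Egr1 was the 1 member at least 2-fold higher at 72 h than at 24 h (2.61), where 8.19% of 1527 genes were and 4.58% were at least 2-fold lower, but its 24 h level rests on 5 UMIs. Cluster 13, described next, held 51, 6 and 36 of the 277, 38 and 79 B cell-like cells. The order of the naïve and 24 h libraries depended on the mixture of clusters: within cluster 5 (Igkc, Ly6d, Cd79a) the sum at 24 h over naïve was 0.826 (0.687–0.986). In cluster 13 (Pclaf, Top2a, Rgs13), which expresses cell division genes, the sum was 2.83-fold higher at 72 h than in naïve mice (2.48–3.23). Dusp1 (7.86), Fosb (6.88), Fos (3.02) and Jund (2.99) differed most there. In the same cells the B cell markers were at 4232 CPM in naïve mice and 980.3 CPM at 72 h, and the Mo/Mφ markers at 5901 and 6611 CPM, so that the cells of this cluster were not alike in the 2 libraries.

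Markers of other classes were also found in the lymphocyte groups. Neutrophil markers were at 14.7, 414 and 469 CPM in T cell-like cells and at 20.3, 331 and 407 CPM in B cell-like cells. Mo/Mφ markers were at 953, 2593 and 2887 CPM in T cell-like cells and at 3317, 3019 and 6351 CPM in B cell-like cells. In T cell-like cells both marker lists and the sum of the 9 genes were higher at 24 h than in naïve mice. From 24 h to 72 h both lists were higher there and the sum was lower. In B cell-like cells the neutrophil markers and the sum were higher at each later time point. The Mo/Mφ markers of B cell-like cells were lower at 24 h than in naïve mice and highest at 72 h. At the ratio of the 9 genes to those markers in their own class, Mo/Mφ RNA would bring 106 CPM of the 9 genes into naïve T cell-like cells (of 2323), 370.5 CPM at 24 h (of 3458) and 249.7 CPM at 72 h (of 3045), and neutrophil RNA a further 66.1 CPM at 24 h and 56.6 CPM at 72 h. In B cell-like cells the Mo/Mφ amounts would be 369 of 1848 CPM in naïve mice, 431 of 2389 at 24 h and 549 of 2827 at 72 h, and the neutrophil amounts 52.9 CPM at 24 h and 49.1 CPM at 72 h. The part of such RNA in the differences between libraries was not tested. Atf3 gave 0 to 18 UMIs per lymphocyte group, and whether the lymphocytes transcribed it themselves was not tested.

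DC-like cells had 4196 CPM in naïve mice, on 22 cells, 3002 at 24 h and 3280 at 72 h. Junb led in this class at 1284, 906 and 945 CPM, above Fos at 617, 471 and 540.0 CPM. Egr1 was at 173, 41.4 and 127 CPM, the 1 member of the 7 at 100 CPM or more that was at least 2-fold lower at 24 h than in naïve mice (0.240), where 6.03% of 1526 genes were. It was also the 1 member at least 2-fold higher at 72 h than at 24 h (3.07), where 2.05% of 1417 genes were and 2.89% were at least 2-fold lower. Within cluster 8, which holds most DC-like cells, the sum at 24 h over naïve was 0.724.

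Pooled over all cells of a library, the 9 genes gave another order, 3392 CPM (3309–3477) in naïve mice, 3837 (3800–3875) at 24 h and 4647 (4589–4706) at 72 h. The naïve library, the highest for monocyte/Mφ-like cells, was thus the lowest for all cells. It held 188 T cell-like and 277 B cell-like cells among its 652. At 24 h over naïve, 1 of the 8 members at 100 CPM or more, Atf3, was at least 2-fold higher over all cells (54.7 and 126 CPM, ratio 2.30), where 20% of 1612 genes were at least 2-fold higher and 11% at least 2-fold lower.

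Single cells were compared after each was thinned to 1000 UMIs, leaving out shallower cells. The median naïve monocyte/Mφ-like cell had 4 UMIs of the 9 genes, the median cell at 24 h 3 and the median cell at 72 h 4. The upper tail differed more, since the 90th percentile was 14.7, 7 and 10 UMIs. At least 20 of 1000 UMIs were found in 5 of 134 naïve cells (3.73%), 1 of 1529 cells at 24 h and 2 of 560 at 72 h. All 5 naïve cells of this kind were among the 71 Cx3cr1+ cells kept. In naïve Cx3cr1+ cells the 9 genes took between 0% and 2.90% of a cell's UMIs, with a median of 0.600%, against a median of 0.354% and a highest value of 1.03% in naïve Cd206+ cells. Neutrophil-like cells at 24 h had a median of 13 UMIs, and 23 of 121 cells (19.0%) reached 20, with 241 of 362 cells left out as too shallow. For T cell-like cells the medians were 1, 3 and 2, and for B cell-like cells 2 at each time point.

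**Figure D5:**
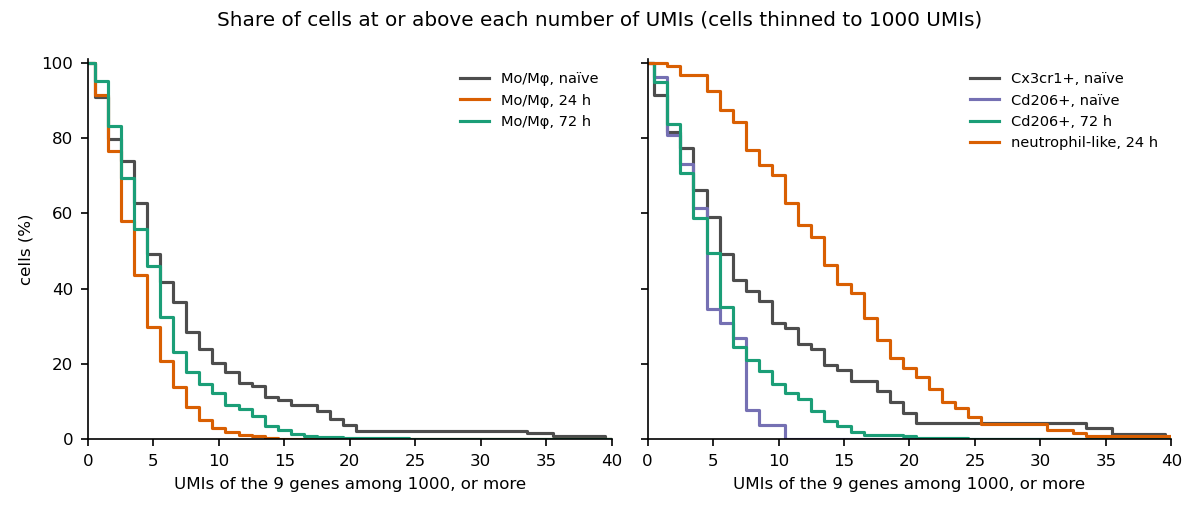
Percent of cells (vertical axis) with at least a given number of UMIs of the 9 genes among 1000 (horizontal axis), for monocyte/Mφ-like cells by time point and for chosen subsets. The curves of naïve and later cells lie close among cells with few UMIs and part in the tail, where 5 of 134 naïve cells reach 20 UMIs.

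In naïve monocyte/Mφ-like cells several members were found more often in cells with Fos than in cells without it. Of 83 thinned cells with a Fos UMI, 63.9% also had Jun, against 23.5% of the 51 cells without Fos. The shares were 59.0% and 29.4% for Junb, 49.4% and 21.6% for Dusp1, 26.5% and 5.88% for Egr1, and 19.3% and 3.92% for Atf3. The intervals overlapped for Atf3 (11.4–29.4% and 0.478–13.5%, the latter on 2 cells). They also overlapped for Jund (53.0% and 39.2%), Ier2 (30.1% and 17.6%) and Fosb (15.7% and 13.7%). These naïve cells mix the Cx3cr1+ subset with subsets of lower level, and the shares were not taken within a subset. At 24 h the gap for Jun was nearly gone, at 21.0% of 953 cells with Fos and 19.1% of 576 cells without it, while that for Junb was 56.7% and 43.1%. At 72 h Jun was in 113 of 355 cells with Fos and 45 of 205 cells without. Cells are not replicates, and these shares describe 1 library each.

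Over the 17 groups of class and library, the levels of most members varied together, but Jun and Jund did not follow. Pearson's r on log2 CPM between a member and the sum of the other 8 was 0.947 for Dusp1, 0.941 for Ier2, 0.922 for Junb, 0.912 for Fos and 0.897 for Egr1, and 0.811 for Atf3 and 0.642 for Fosb. It was 0.397 for Jun and 0.109 for Jund. Among the 2614 other genes ranked, Trem1 (0.975), Nfe2l2, Mmp9 and F630028O10Rik (each 0.955) and Il1b (0.954) were nearest to the sum of the 9, and several of these mark neutrophils. Among related lists, Btg2 (0.940), Nfkbia (0.926), Socs3 and Tnf (both 0.920) followed the sum, and Hsp90ab1 (−0.935) and Hspe1 (−0.919) ran against it. The 17 groups share 3 libraries and differ in depth, so these values describe these groups and carry no test.

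The DNA before the start sites is shown for the members with a motif match, because most of these genes varied together. Windows of 300 bases (250 before the RefSeq start and 50 from it on) on GRCm38.p6 were found for 7 members and for none of Egr1 and Ier2. They were searched on both strands for the AP-1 site TGANTCA, the cAMP response element (CRE) TGACGTCA, its core TGACG (a motif added after the sequences were seen, whose matches also count inside a full CRE), the EGR site GCGNGGGCG and the CArG box of serum response factor. Capitals mark the matches and each stretch is written 5′ to 3′ on the strand of the gene:
Fos, chr12:85473746-85473843, plus strand: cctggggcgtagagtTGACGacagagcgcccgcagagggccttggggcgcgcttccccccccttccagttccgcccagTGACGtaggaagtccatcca
Fosb, chr7:19310072-19310120, minus strand: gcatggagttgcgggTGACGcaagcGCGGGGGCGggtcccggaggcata
Junb, chr8:84978835-84978869, minus strand: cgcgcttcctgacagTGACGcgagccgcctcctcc
Atf3, chr1:191183334-191183355, minus strand: ctattaatagcattaCGTCAgc
Dusp1, chr17:26508593-26508678, minus strand: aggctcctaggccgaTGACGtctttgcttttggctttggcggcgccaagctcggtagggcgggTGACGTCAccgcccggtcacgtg
The core, found in 20.8% of the 32851 promoter windows of the table, was searched because it was seen in these stretches, so its presence in 5 of the 7 windows describes them and nothing is read from that share. The windows of Jun and Jund held no match, and that of Jund lies around a RefSeq start 1210 bases upstream of the annotated gene. The Fos stretch holds the core at −129 and −66 relative to the start, and Dusp1 has a full CRE at −143, a motif found in 1.79% of all windows. The EGR site in Fosb is found in 5.55% of windows. No window held an AP-1 site or a CArG box, which 7.81% and 1.63% of all windows hold. Sites farther from the start were not searched. A match is a run of letters, not a bound site, and no binding was measured.

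By GENCODE vM21 on GRCm38, Fos lies on chromosome 12 at 85473890–85477273 (plus strand), Fosb on chromosome 7 at 19302696–19310051 (minus), Jun on chromosome 4 at 95049034–95052222 (minus), and Jund (70698949–70700616, plus), Junb (84974484–84978718, minus) and Ier2 (84661331–84662852, minus) on chromosome 8. Atf3 lies on chromosome 1 at 191170296–191218039 and Dusp1 on chromosome 17 at 26505590–26562128, both on the minus strand. The stretches shown for Fos, Fosb and Junb lie upstream of these genes. For Atf3 and Dusp1 the RefSeq start is 34706 and 53656 bases inside the annotated gene, so the stretches shown for these genes lie within it.

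Other genes of the same response were read beside the members in monocyte/Mφ-like cells. Of the 1522 genes compared there at 24 h over naïve, 13.7% were at least 2-fold higher and 8.15% at least 2-fold lower. Of 19 other immediate early genes, 11 were at 100 CPM or more, and at 24 h over naïve 0 were at least 2-fold higher and 2 were at least 2-fold lower. These were Socs3, an inhibitor of cytokine receptors (238 and 89.5 CPM, ratio 0.377), and Klf6, a zinc-finger factor (632 and 253 CPM, 0.400). Their median log2 ratio was −0.61, against −0.87 for the 9 members. Dusp6, the only other MAPK phosphatase at that level, was at 163 and 54.5 CPM (0.335), and Nfkbiz, a nuclear partner of NF-kB, at 193 and 65.7 CPM (0.341). Of the cytokine genes with AP-1 sites, Ccl3 was lower at 24 h (595 and 249 CPM, 0.419), while Cxcl2 was at 339 and 628 CPM (1.85) and Il1b at a ratio of 1.25. Of the other AP-1 subunits only Atf4 reached 100 CPM (ratio 0.907). None of the upstream kinases and factors listed (Srf, Elk1, Creb1 and Mapk14 among them) reached it. Hspa1a was at 177 and 35.8 CPM (0.202), but of the 7 heat shock genes at 100 CPM or more 2 were at least 2-fold higher, Hspd1 (2.76) and Hspe1 (2.11).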

How the data were processed

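Single-cell 3′ libraries of CD45+ muscularis cells (naïve, 24 h and 72 h, each 1 pool of 3 to 4 mice) were deposited by the authors as UMI counts per gene and cell, after Cell Ranger 3.0.2 on mm10 and removal of cells under 200 genes or over 10% mitochondrial UMIs. Samples were grouped by their labels. The 9 genes and all lists were chosen with earlier results of these data known. Cells were clustered with Seurat 5.3.0 (R 4.3.3: 2000 variable genes without 74 genes of the lists used here, 30 principal components, 20 neighbours, resolution 0.8, and 20 components for the monocyte/Mφ subsets). A cluster was named by a rule written after the clusters were seen: at least 3 markers of a list detected in 10% of its cells and 2-fold higher than elsewhere, and leading genes that did not go against the name. Rebuilt names may differ from those of the study. Scrublet (scanpy 1.11.5) called 3, 5 and 8 doublets, too few to rely on, so none were removed.

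UMIs were summed per group of at least 20 cells and given as CPM with exact Poisson 95% intervals. Ratios carry exact conditional Poisson intervals and shares of cells Clopper-Pearson intervals in the tables, all of which cover counting error only. No test was run between libraries, since each time point had 1. Genes at 100 CPM or more in either library were compared, and called when at least 2-fold apart. Members were described in every class. From each list up to 4 genes at 100 CPM or more in monocyte/Mφ-like cells were named, those with the log2 ratio of 24 h over naïve farthest from 0. For likeness the 10 nearest genes counted (Pearson's r on log2 of CPM + 10, genes with a mean of 50 CPM or more over groups). List genes that follow the sum, or that were read beside the Cx3cr1+ subset, were named after their values were seen. For the 2-fold calls and the median log2 ratios, a count below 3 in a group was set at 3. On simulated counts for 1352 genes, 96.5% of intervals held the true ratio and 100% of 200 genes changed 2-fold were recovered. These counts were Poisson draws without variation between cells, mice or libraries. The simulation therefore checks only the computation of the intervals and cannot show how far libraries vary. Depth was 1865221, 10542346 and 5246731 UMIs. Python 3.11.15, numpy 2.4.6, scipy 1.17.1, pandas 2.3.3 and matplotlib 3.10.9 were used. Alternatives were other resolutions, components, variable genes, a stricter cell filter, removal of doublet scores, mean CPM per cell, thinning and equal cluster weights.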

Additional observations from a re-analysis of the deposited data

Results flagged for a closer look

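The sum of the 9 genes differed in direction between cell classes under the same contrast of libraries, and these differences were not tested, since each time point was 1 library. At 24 h over naïve the ratio of summed CPM was 0.554 in monocyte/Mφ-like and 0.715 in DC-like cells, but 1.49 in T cell-like and 1.29 in B cell-like cells. At 72 h over 24 h it was 1.30 in monocyte/Mφ-like, 1.09 in DC-like and 1.18 in B cell-like cells, and 0.892 in neutrophil-like and 0.881 in T cell-like cells. At 72 h over naïve it was 0.719 and 0.782 in monocyte/Mφ-like and DC-like cells, against 1.31 and 1.53 in T cell-like and B cell-like cells. Within single clusters of T cell-like and B cell-like cells the ratio at 24 h over naïve was 1.13 (cluster 9) and 0.826 (cluster 5), and at 72 h over naïve it was 1.08 in cluster 9 and 0.924 in cluster 10, both with intervals that include 1, and 1.23 (1.09–1.39) in cluster 5.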

How the results depend on the processing

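No paired analysis was possible because each time point was 1 library and the labels carry no replicate numbers. The ratio of the 9 genes at 24 h over naïve in monocyte/Mφ-like cells ranged from 0.538 to 0.568 under the alternatives that kept the Cx3cr1+ cells. Without these cells it lay above that range, as given in the Results. Equal cluster weights could not be used for this ratio, because no monocyte/Mφ-like cluster had enough cells in both libraries. The range therefore does not show how far the ratio depends on the kinds of cells. Over all cells the ratio at 24 h over naïve moved from 1.13 to 1.10 with a stricter cell filter. It was 1.48 as the mean over cells and 1.25 after thinning. At 72 h over 24 h the ratio over all cells moved from 1.21 to 1.25, 1.17 and 1.29 in the same order. In monocyte/Mφ-like cells the ratio at 72 h over 24 h, 1.30, was 1.33 both as the mean over cells and after thinning, and 1.23 with equal cluster weights. In T cell-like cells 24 h over naïve moved from 1.49 to 1.13 with equal weights, and 72 h over 24 h from 0.881 to 0.776 after thinning. In B cell-like cells 24 h over naïve, 1.29, was 1.01 as the mean over cells and 1.02 after thinning, and it turned to 0.826 at resolution 0.5 and with equal weights, both of which leave cluster 5 alone, where 72 h over 24 h was 1.49 instead of 1.18. Of 243 alternative values of single genes, 219 stayed within the interval of the reported level, with a range of 0.301 to 1.62 times that level. Of 33 for the subset sums 9 fell outside, and of 69 for ratios of the sum 15 fell outside and 2 reversed. Equal weights and the values without Cx3cr1+ cells were chosen after seeing the data. Depth limits Atf3 and Fosb in lymphocytes and every value of naïve DC-like cells.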
